A study of Mus musculus with 8 samples.

Results

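The interferon-gamma induced GTPases are 10 genes chosen by symbol: Gbp2, Gbp3, Gbp5, Gbp7, Gbp8 and Gbp9 of the guanylate-binding protein (GBP) family, and Irgm1, Irgm2, Igtp and Iigp1 of the immunity-related GTPase (IRG) family. Of these, 9 had a row among the 31854 rows of the count table, and all 9 passed the filter on low counts, which left 15667 rows. No row carried the symbol Igtp, so no value is given under that name. Irgm2 stood on 2 rows, and the row with the higher total count was used for it. The tissue was epididymal white fat of mice, all on a high-fat diet, and RNA-seq libraries of 2 genotypes were compared. One genotype was wild-type (WT, replicates 1, 2, 3 and 5). The other was S273A (replicates 2, 3, 4 and 6), in which PPAR-gamma, the nuclear receptor of fat cell formation encoded by Pparg, has alanine in place of a serine that kinases can phosphorylate. There were 4 libraries of each. Of age, time on the diet, strain and zygosity nothing is stated in the sources used here. Whether libraries are from different animals is not stated either, so the p-values rest on library-to-library spread, which may be technical.

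Both families are switched on by interferon-gamma, a cytokine made mainly by T cells, NK cells and related innate lymphocytes. Its receptor signals through JAK kinases to transcription factors that bind gamma-activated sites (GAS) in DNA, and these induce further factors such as IRF1 that bind interferon-stimulated response elements (ISRE). The GTPases then act inside the responding cell: GBPs assemble on pathogen vacuoles and on bacteria and promote inflammasome activation, effector IRGs such as Iigp1 load onto parasite vacuoles, and the IRGM proteins sit on host membranes and hold the effector IRGs in check there.

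Stretches upstream of the start sites are shown because members of both families carry matches to the elements just named. The RefSeq promoter table (build GRCm38.p6) held 7 of the 10 members; Gbp8, Gbp9 and Iigp1 were not in it. The 250 bases before each start site were searched on both strands for GAAANNGAAA, an ISRE-type match, and for TTCNNNGAA, a GAS-type match, which reads the same on both strands. The sequences run 5′ to 3′ on the gene's strand, with every match in capitals. They reach at most 30 bases beyond the outermost matches and stop at annotated exons. For Gbp2 and Irgm1 the match lay at or within an annotated exon of the gene itself, and 30 bases are shown.
Gbp2, chr3:142620594-142620623, plus strand: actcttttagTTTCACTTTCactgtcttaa
Gbp3, chr3:142559969-142560025, plus strand: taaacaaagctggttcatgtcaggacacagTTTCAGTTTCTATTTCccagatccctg
Gbp5, chr3:142496684-142496899, plus strand: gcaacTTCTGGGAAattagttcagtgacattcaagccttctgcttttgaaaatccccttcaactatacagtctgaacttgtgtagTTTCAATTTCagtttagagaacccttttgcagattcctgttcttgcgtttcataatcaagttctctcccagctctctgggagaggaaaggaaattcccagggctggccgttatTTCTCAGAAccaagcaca
Gbp7, chr3:142530200-142530322, plus strand: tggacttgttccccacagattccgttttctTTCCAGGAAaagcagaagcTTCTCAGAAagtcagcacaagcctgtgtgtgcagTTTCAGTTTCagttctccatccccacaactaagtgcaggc
Irgm1, chr11:48871428-48871457, minus strand: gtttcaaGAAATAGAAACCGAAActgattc
Irgm2, chr11:58214872-58214952, plus strand: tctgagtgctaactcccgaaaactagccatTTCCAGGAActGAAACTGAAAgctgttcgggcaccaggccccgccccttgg
Igtp, chr11:58199481-58199555, plus strand: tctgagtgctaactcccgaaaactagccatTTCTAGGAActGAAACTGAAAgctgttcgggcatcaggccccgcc

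An ISRE-type match lay upstream of 7 of 7 members in the table. It was found in 978 of all 32851 RefSeq promoters (2.98%) and, counted by gene, in 936 of 27025 genes (3.46%). Gbp3 has a second promoter in the table, without a match to either motif. In Gbp3 and Irgm1 there were 2 ISRE-type matches that overlap each other. A GAS-type match lay upstream of 4 of the 7 members (Gbp5, Gbp7, Irgm2 and Igtp), against 7.02% of all promoters, and both motifs occurred together in 0.332% of all promoters. In Irgm2 and Igtp the GAS-type and ISRE-type matches stood 2 bases apart. The upstream stretches of these neighbouring genes shared an identical run of 55 bases. That run does not hold the whole motif pair, since the GAS-type match differs between these genes. An ISRE-type match was also upstream of 4 of the 8 other interferon-inducible GTPase genes in the table, 6 of 14 type I interferon-stimulated genes, 1 of 14 interferon-gamma signalling genes, 1 of 14 other interferon-gamma targets and 0 of 17 genes of the effector machinery, lists that are described further on. A match is a description of the letters in this window, not a binding site.

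**Figure D1:**
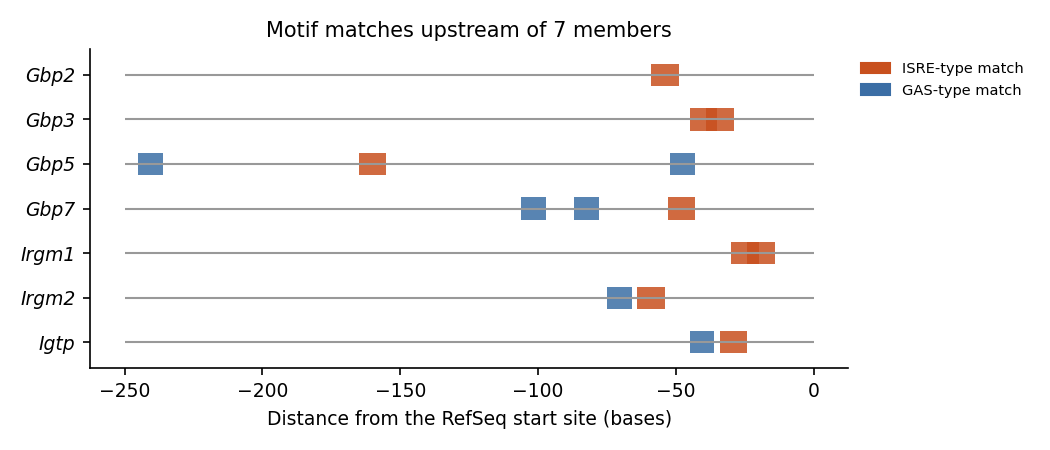
Positions of ISRE-type (orange) and GAS-type (blue) matches in the 250 bases before the RefSeq start site of 7 members; the x axis is the distance from the start site in bases, and overlapping matches are darker. The ISRE-type matches of 6 genes begin at most 64 bases before the start, and that of Gbp5 begins 165 bases before it.

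The members differed between the lowest and the highest of the 8 libraries by 1.48-fold (Gbp9) to 4.89-fold (Gbp8) and varied together, and edgeR called 0 of 9 different between the genotypes (0% of all tested rows were called). WT replicate 5 had the lowest value for 9 of the 9 measured genes. WT replicate 1 and S273A replicate 3 were among the top 3 libraries for all 9, and WT replicate 2 for 8 of 9. The estimate was below 0 (lower in S273A) for 9 of 9, against 49.3% of all tested rows. The genotypes overlapped for each of the 9; they did not overlap for 1.19% of all tested rows. Levels are normalised CPM, reads scaled to a common TMM-corrected library size, listed in the order of the replicates above. Intervals of log2 differences are 95% confidence intervals, and gene positions are those of GENCODE M21 on build GRCm38. Total counts lay between 14880239 and 18194889 per library, and WT replicate 5 had 17219902.

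Iigp1 (row uc008fad.2, chromosome 18, 60376027 to 60392634, plus strand), an effector IRG, measured 105, 99.2, 68.2 and 28.7 CPM in the WT libraries and 47.0, 101, 46.0 and 33.3 CPM in the S273A libraries. All S273A values lay inside the WT range, and only S273A replicate 3 reached the level of the 2 high WT libraries. The means were 75.3 ± 35.0 CPM for WT against 56.9 ± 30.2 CPM for S273A (SD, n = 4 each). The log2 difference, S273A minus WT, was -0.40 (SE 0.42; 95% interval from -1.35 to 0.54; unadjusted p 0.362 by edgeR), the lowest estimate of the 9 genes. Its adjusted p, like that of every member, was 1.00 by edgeR. Leaving out 1 library at a time moved the estimate between -0.83 and -0.20.

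On the rows used for them, the IRGM regulators had narrower spreads. Irgm1 (uc007ipg.1, chromosome 11, 48861968 to 48871683, minus strand), known for its part in resistance to mycobacteria and in autophagy, measured 62.0, 67.8, 52.3 and 32.1 CPM in WT libraries and 47.9, 64.4, 43.2 and 43.1 CPM in S273A libraries. WT replicate 5 lay below every S273A library, and WT replicate 2 above every one. The difference on the log2 scale was -0.11 (SE 0.22; 95% interval from -0.60 to 0.38; unadjusted p 0.625 by edgeR). Irgm2 (uc007jau.2, chromosome 11, 58199618 to 58222782, plus strand), a regulator of the same subfamily, measured 90.8, 84.6, 69.4 and 41.0 CPM in WT libraries and 51.9, 84.9, 53.8 and 49.8 CPM in S273A libraries. S273A replicate 3 stood well above the other S273A libraries, which lay close together. For Irgm2 the log2 difference came to -0.25 (SE 0.25; 95% interval from -0.80 to 0.31; unadjusted p 0.340 by edgeR).

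The other row named Irgm2 (uc007jat.2) measured 41.1, 42.3, 32.6 and 12.7 CPM in WT libraries and 22.1, 45.0, 21.4 and 18.03 CPM in S273A libraries (log2 difference -0.27, SE 0.38). Its highest 3 and lowest 2 libraries were those of the first row. Its spread was wider, with an SD of log2 CPM between libraries of a genotype of 0.70 against 0.44 for the first row. This row may hold reads of Igtp: its length is 2023 bases, and annotated Igtp has 2022 exon bases, but the table does not say so and the row is left under its own label. Annotated Igtp lies at 58199556 to 58207591 of chromosome 11 on the plus strand. That is within the span of annotated Irgm2 but for its first bases, and the genes share 162 exon bases.

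Among the GBPs of the chromosome 3 cluster, Gbp2 (uc008roy.1, 142620602 to 142638008), a lipid-anchored GTPase that coats vacuoles, measured 127, 126, 99.2 and 48.8 CPM in WT libraries and 82.6, 125, 71.7 and 55.3 CPM in S273A libraries. WT replicate 5 lay below all S273A libraries, while the other 3 WT libraries lay above S273A replicates 2, 4 and 6. The estimated log2 difference for Gbp2 was -0.26 (SE 0.31; 95% interval from -0.96 to 0.44; unadjusted p 0.423 by edgeR). Gbp5 (uc008roq.1, 142493978 to 142522344), a lipid-anchored GTPase linked to the NLRP3 inflammasome, measured 38.6, 37.1, 28.0 and 14.5 CPM in WT libraries and 23.4, 35.3, 21.3 and 17.9 CPM in S273A libraries, the arrangement seen for Gbp2. The estimated log2 difference for Gbp5 was -0.27 (SE 0.30; 95% interval from -0.94 to 0.40; unadjusted p 0.385 by edgeR). Gbp3 (uc008rou.2, 142560026 to 142573209) ran from 17.8 to 36.7 CPM over WT libraries and from 20.4 to 33.9 CPM over S273A libraries (log2 difference -0.19, SE 0.22). Gbp7 (uc008ros.2, 142530342 to 142550149), linked to oxidative and autophagic defence in macrophages, ran from 49.4 to 85.9 CPM over WT libraries and from 54.3 to 82.5 CPM over S273A libraries (log2 difference -0.10, SE 0.17). All of these genes lie on the plus strand, and all had WT replicate 1 as the highest library.

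Gbp8 and Gbp9 of the chromosome 5 cluster, both on the minus strand, were the most and the least variable members. Gbp8 (uc008ykv.1, 105014150 to 105139540) measured 13.6, 16.7, 7.87 and 3.41 CPM in WT libraries and 7.97, 15.6, 5.63 and 5.85 CPM in S273A libraries, the highest 4.89-fold above the lowest. Counting error was small beside this. WT replicate 2 had 293 reads (95% exact Poisson interval 260.4 to 329) and WT replicate 5 had 58 (44.0 to 75.0); the intervals cover counting error only. Gbp8 had the widest error of the 9 genes, with a log2 difference of -0.25 (SE 0.47; 95% interval from -1.30 to 0.80; unadjusted p 0.611 by edgeR). Gbp9 (uc008ykw.2, 105077630 to 105139539) measured 50.7, 40.6, 43.8 and 34.2 CPM in WT libraries and 36.7, 45.8, 37.5 and 41.7 CPM in S273A libraries, a highest-to-lowest ratio of 1.48. Its libraries kept the order of the other genes less closely: WT replicate 2 ranked 5th and S273A replicate 6 ranked 4th. Gbp9 had the estimate nearest 0, -0.07 (SE 0.12; 95% interval from -0.33 to 0.20; unadjusted p 0.587 by edgeR).

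**Figure D2:**
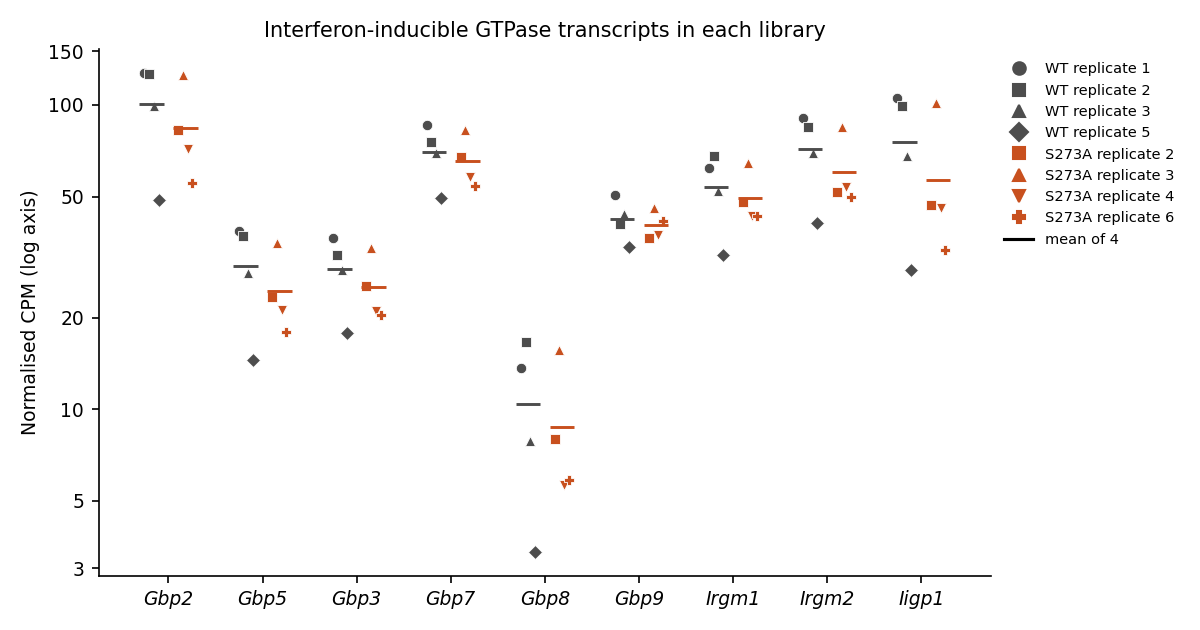
Normalised CPM (log axis) of the 9 measured members in each of 8 libraries, WT in grey and S273A in orange, with marker shapes for replicate numbers and a bar for the mean of 4. WT replicate 5 (diamond) is the lowest library for every gene shown, from 3.41 CPM for Gbp8 to 49.4 CPM for Gbp7, and the genotypes overlap for every gene shown.

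Near-identical sequence limits how far single members can be told apart. Of the distinct 36-base words (the read length) in a member's annotated transcripts, the share also found in transcripts of other genes was 26.8% for Gbp8, 14.8% for Gbp9, 14.1% for Gbp7 and 9.88% for Irgm2. For Igtp it was 14.7%, shared with Irgm2. It was 5.08% for Iigp1 and between 1.76% and 5.05% for Gbp3, Gbp2, Gbp5 and Irgm1. The chief partners were Gbp11 for Gbp8, Gbp8 for Gbp9 and the overlapping gene model Gm43802 for Gbp7. The libraries carry no strand information, and how reads that map to several places were counted was not stated, so the values of Gbp8, Gbp9, Gbp7 and Irgm2 are uncertain. The shares do not measure by how much, since reads came in pairs and the annotation version of the counted rows was not given.

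Per length, Gbp2 was the most abundant member. As reads per kilobase of row length in each library, scaled like the CPM (RPKM, mean ± SD over 8 libraries), its level was 37.5 ± 13.1, followed by Irgm1 at 23.2 ± 5.56, Irgm2 at 18.5 ± 5.37 and Iigp1 at 15.2 ± 7.32. The RPKM of Gbp7 (12.1 ± 2.35), Gbp9 (11.4 ± 1.48) and Gbp3 (9.09 ± 2.33) came next, and Gbp5 (4.23 ± 1.44) and Gbp8 (3.65 ± 1.91) were lowest. Each gene lay above the next in this order in 8 of 8 libraries, except at 3 steps. Iigp1 exceeded Gbp7 in 5 libraries, Gbp7 exceeded Gbp9 in 5, and Gbp5 exceeded Gbp8 in 6, so those neighbours did not differ beyond their spread.

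The members' spread between libraries was wide for their level. The SD of log2 CPM between libraries of a genotype was 0.86 for Gbp8, 0.78 for Iigp1, 0.58 for Gbp2, 0.54 for Gbp5 and 0.44 for Irgm2, with a median of 0.44 over the 9 genes. The 13807 rows whose mean log2 CPM was 1 or higher had a median SD of 0.13. Among rows within 0.5 of its own mean log2 CPM, 0.0406% had a higher SD than Iigp1, 0.237% than Gbp2, 0.474% than Gbp8 and 0.77% than Irgm2. Gbp9, with an SD of 0.20, was exceeded by 15.2% of such rows.

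**Figure D3:**
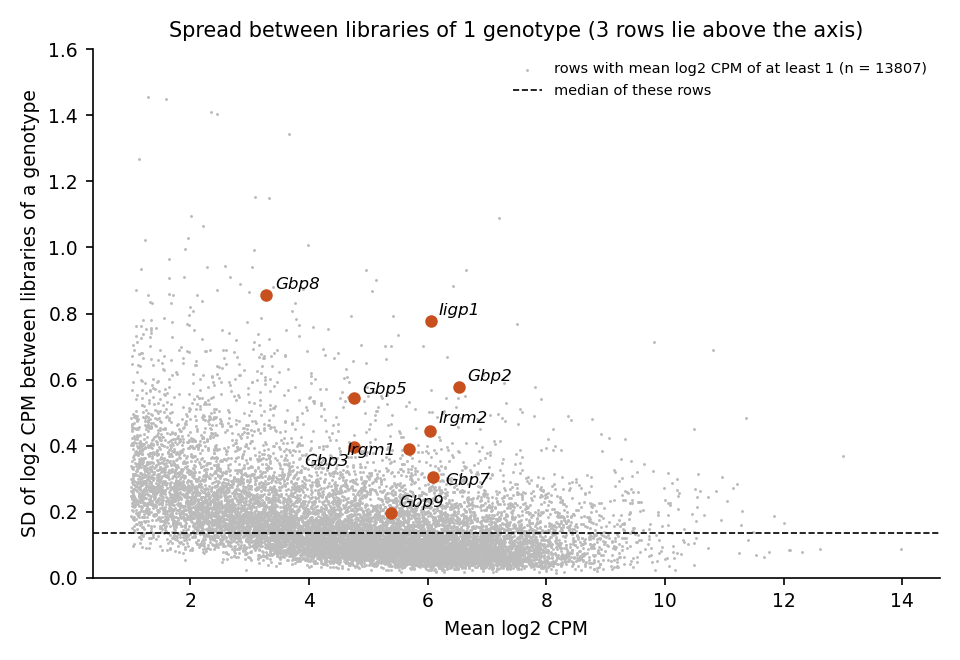
SD of log2 CPM between libraries of a genotype against mean log2 CPM for 13807 rows (grey) and the 9 measured members (orange); the dashed line is the median of the grey rows (0.13) and 3 rows lie above the axis. Iigp1, Gbp2 and Gbp8 stand at 0.58 or more, and Gbp9 is nearest to the median at 0.20.

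The members varied together over the libraries. Over the 36 pairs of the 9 genes, Pearson's r of log2 CPM across 8 libraries had a median of 0.96 and ran from 0.71 to 0.99, and Spearman's rho had a median of 0.92 and ran from 0.55 to 1. By an exact two-sided permutation test over the order of libraries, with Benjamini-Hochberg adjustment over the pairs, 36 of 36 values of r (highest adjusted p 0.0480) and 32 of 36 values of rho had an adjusted p under 0.05. The 8 pairs with Gbp9 had r between 0.71 and 0.84, and the other 28 pairs had 0.94 or more. Without the 2 libraries farthest from the median of one gene of the pair, r ran from 0.47 (Gbp5 with Gbp9) to 0.99, with a median of 0.95. With each genotype's mean removed, r ran from 0.71 to 1.00. For comparison, the median r over all pairs of the 13807 rows was -0.001, and 4.58% of those pairs reached the lowest value found among the members. The same 8 libraries enter every pair and every member's genotype estimate, so the shared sign of the estimates is not 9 separate observations.

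A score, the mean over the 9 genes of log2 CPM after subtracting the gene's own 8-library mean, puts this in 1 number per library. It was 0.51, 0.46, 0.10 and -0.72 for the WT libraries and -0.13, 0.47, -0.29 and -0.41 for the S273A libraries. The high libraries were WT replicates 1 and 2 and S273A replicate 3.

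Between the genotypes, edgeR called 0 of 9 members at an adjusted p under 0.05, and 0 of 9 had an unadjusted p under 0.05. Over the whole table it called 0 of 15667 rows (0%), with 229 rows (1.46%) at an unadjusted p under 0.05. With limma-voom the calls were also 0 (223 rows unadjusted), and DESeq2 called 1 row (166 unadjusted), which was no member. The genotypes did not overlap in 0 of 9 members and in 186 of all tested rows (1.19%). Estimates below 0 made up 9 of 9 members and 49.3% of all tested rows, and the median log2 difference was -0.25 over the members and 0.0015 over all rows. That median depended on single libraries: it was -0.089 without WT replicate 1, -0.13 without WT replicate 2, -0.44 without WT replicate 5, -0.45 without S273A replicate 3, -0.12 without S273A replicate 4 and -0.11 without S273A replicate 6. Without WT replicate 1, or without WT replicate 2, 7 of 9 estimates were below 0.

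**Figure D4:**
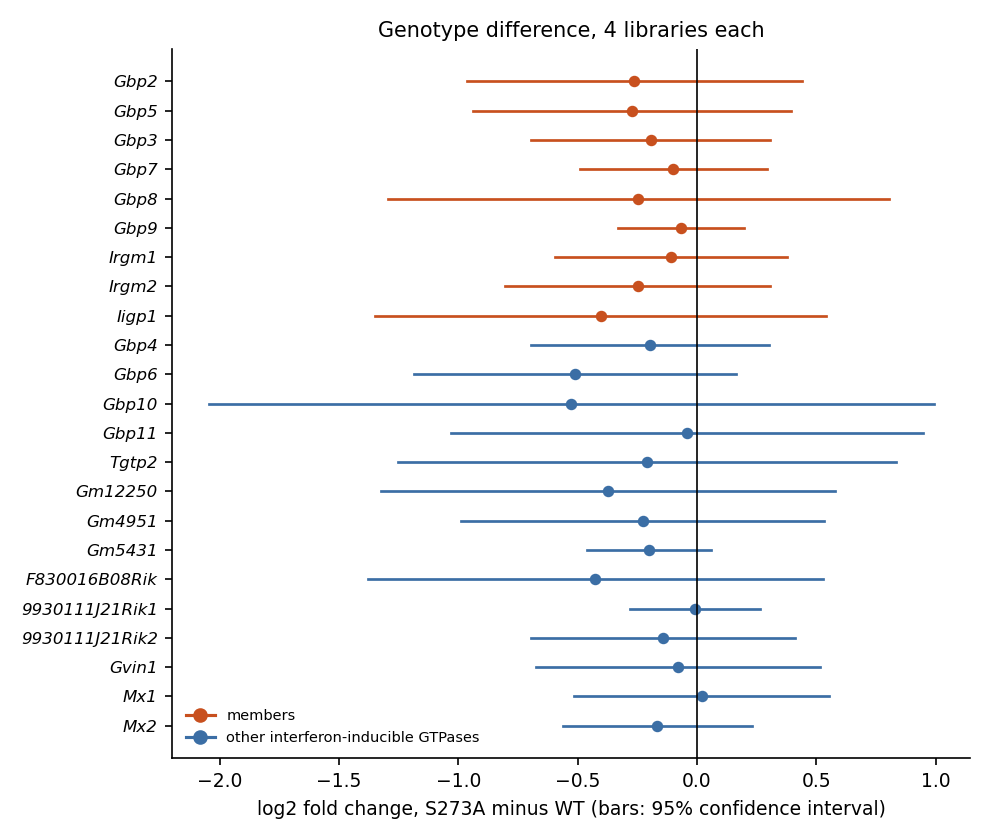
Log2 difference, S273A minus WT, with 95% confidence intervals for the 9 measured members (orange) and 14 other interferon-inducible GTPases (blue), 4 libraries per genotype. Every interval shown crosses 0; estimates of the members lie between -0.40 (Iigp1) and -0.07 (Gbp9).

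On average, other interferon-inducible GTPases were high and low in the same libraries, though not each of them. Of a list of 19 such genes, 17 had a row and 14 were tested; 13 estimates were below 0 and 1 above, the median log2 difference was -0.20, and 0 were called. The list's score was 0.51, 0.50, 0.06 and -0.70 for the WT libraries and -0.16, 0.52, -0.28 and -0.45 for the S273A libraries. Gbp6, of the chromosome 5 cluster, averaged 18.8 ± 6.69 CPM (WT) against 13.2 ± 4.36 CPM (S273A), with a log2 difference of -0.51 (SE 0.30; 95% interval from -1.18 to 0.17; unadjusted p 0.123 by edgeR). F830016B08Rik, an IRG-like gene, ran from 7.69 to 27.0 CPM over WT libraries and from 9.66 to 26.2 CPM over S273A libraries (log2 difference -0.43, SE 0.42). Gm5431 averaged 10.8 ± 0.376 CPM (WT) against 9.42 ± 1.496 CPM (S273A; log2 difference -0.20, SE 0.12). Mx2, a dynamin-like GTPase of the interferon response, averaged 5.65 ± 1.37 against 5.02 ± 0.546 CPM (log2 difference -0.17, SE 0.18; SD, n = 4 each). Over the 8 libraries, Pearson's r between a listed gene's log2 CPM and the members' score ran from 0.38 (9930111J21Rik1) to 0.98 (F830016B08Rik). It was 0.55 for Gm5431, lowest in S273A replicate 4, and 0.60 for Mx2, lowest in WT replicate 2.

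Upstream of the GTPases, the cytokine transcript was scarce. Ifng, which encodes interferon-gamma, had 15, 15, 16 and 6 reads in WT libraries and 13, 17, 9 and 2 reads in S273A libraries. The 95% exact Poisson intervals of the extremes were 9.90 to 27.2 reads for S273A replicate 3 and 0.242 to 7.22 reads for S273A replicate 6. For Ifng the log2 difference came to -0.42 (SE 0.49; 95% interval from -1.52 to 0.67; unadjusted p 0.408 by edgeR). The receptor chains were abundant and even. Ifngr1, the ligand-binding chain, averaged 204 ± 17.6 CPM (WT) against 212 ± 15.4 CPM (S273A; log2 difference 0.05, SE 0.08). Ifngr2, its signalling partner, averaged 86.9 ± 3.54 against 86.3 ± 6.22 CPM (log2 difference -0.01, SE 0.06; SD, n = 4 each).

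Below the receptor, Irf1 varied with the members. Irf1, an interferon-induced transcription factor, measured 97.1, 100.3, 87.3 and 61.8 CPM in WT libraries and 78.2, 106, 66.8 and 75.4 CPM in S273A libraries, with a log2 difference of -0.08 (SE 0.17; 95% interval from -0.47 to 0.30; unadjusted p 0.635 by edgeR). WT replicate 5 was its lowest library and S273A replicate 3 its highest. Ciita, the activator of MHC class II genes, averaged 136 ± 26.7 CPM (WT) against 114 ± 34.8 CPM (S273A; log2 difference -0.25, SE 0.21). Tbx21, the transcription factor of interferon-gamma producing lymphocytes, averaged 6.73 ± 3.07 against 5.64 ± 1.56 CPM (log2 difference -0.25, SE 0.33; SD, n = 4 each). Of the 18 tested genes of this signalling list of 19, 14 estimates were below 0 and 4 above, with a median of -0.05 and 0 called.

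Of 23 other interferon-gamma targets, mostly of antigen presentation and chemotaxis, 20 were tested: 16 estimates were below 0 and 4 above, with a median of -0.14 and 0 called. The list's score was 0.24, 0.26, 0.15 and -0.41 for the WT libraries and -0.13, 0.29, -0.20 and -0.20 for the S273A libraries. Over the 8 libraries, r of a listed gene's log2 CPM with the members' score ran from -0.10 (Ubd) to 0.99 (Serpina3g). Ubd, a ubiquitin-like gene that did not follow that score, averaged 37.3 ± 6.59 CPM (WT) against 31.4 ± 6.63 CPM (S273A; log2 difference -0.25, SE 0.17). Fcgr1, the high-affinity Fc receptor, averaged 55.2 ± 7.14 against 50.1 ± 6.13 CPM (log2 difference -0.14, SE 0.11). Psmb8, of the immunoproteasome, averaged 63.1 ± 11.5 against 55.8 ± 9.29 CPM (log2 difference -0.17, SE 0.15). The chemokine gene Cxcl11 had an estimate of the other sign, averaging 1.504 ± 0.240 against 1.81 ± 0.243 CPM (log2 difference 0.27, SE 0.19; SD, n = 4 each).

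Genes chiefly known as type I interferon targets ordered the libraries partly otherwise. Of 15 such genes, all tested, 10 estimates were below 0 and 5 above (median -0.05), 0 were called and 1 had an unadjusted p under 0.05. That gene was Oas1a, of the double-stranded RNA response, which averaged 14.6 ± 1.20 CPM (WT) against 12.7 ± 0.924 CPM (S273A), with a log2 difference of -0.20 (SE 0.09; unadjusted p 0.0482 by edgeR) and an adjusted p of 1.00. The log2 differences of Ifih1 (-0.13, SE 0.09), an RNA sensor, Usp18 (-0.10, SE 0.14), a brake on interferon signalling, and Ifit2 (-0.09, SE 0.13), an antiviral gene, were smaller. The list's score was 0.19, 0.02, 0.12 and -0.26 for the WT libraries and -0.16, 0.14, -0.12 and 0.07 for the S273A libraries. It was highest in WT replicate 1 and lowest in WT replicate 5, as for the members. It did not place WT replicate 2 with the high libraries nor S273A replicate 6 with the low ones. Pearson's r of a listed gene with the members' score ran from 0.06 (Rsad2) to 0.93 (Stat2).

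As a whole list, the machinery that the GTPases work with showed no common order of libraries. This list of 23 genes, all tested, holds inflammasome and pyroptosis genes, autophagy conjugation genes and the prenylation enzymes that attach lipid anchors. Its score lay between -0.03 and 0.03 in the 8 libraries, a mean over genes that differed in direction. For the inflammasome and pyroptosis genes, r with the members' score ran from 0.41 (Aim2) to 0.68 (Casp1), except for Il1b (-0.12). For the autophagy and prenylation genes it ran from -0.81 (the autophagy receptor gene Sqstm1) to 0.62 (Pggt1b). It was below 0 for all of these but Atg3, Atg5 and Pggt1b. The SD of log2 CPM between libraries of a genotype had a median of 0.11 over the list. It ran from 0.05 for Gabarapl2 to 0.31 for the caspase gene Casp4 and 0.32 for the DNA sensor Aim2. Estimates were below 0 for 14 and above 0 for 9, with a median of -0.02 and 0 called. Pggt1b, a geranylgeranyl transferase subunit, averaged 54.8 ± 2.99 CPM (WT) against 50.4 ± 2.46 CPM (S273A), with a log2 difference of -0.12 (SE 0.06; 95% interval from -0.25 to 0.01; unadjusted p 0.0730 by edgeR). Atg16l1, of the autophagy conjugation complex, averaged 69.8 ± 3.10 against 74.1 ± 2.29 CPM (log2 difference 0.09, SE 0.05). Gabarapl2, an autophagy protein of the LC3 family, averaged 48.3 ± 1.58 against 46.5 ± 1.53 CPM (log2 difference -0.05, SE 0.05), and the inflammasome protease Casp1 41.4 ± 5.43 against 38.3 ± 4.73 CPM (log2 difference -0.11, SE 0.11; SD, n = 4 each).

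**Figure D5:**
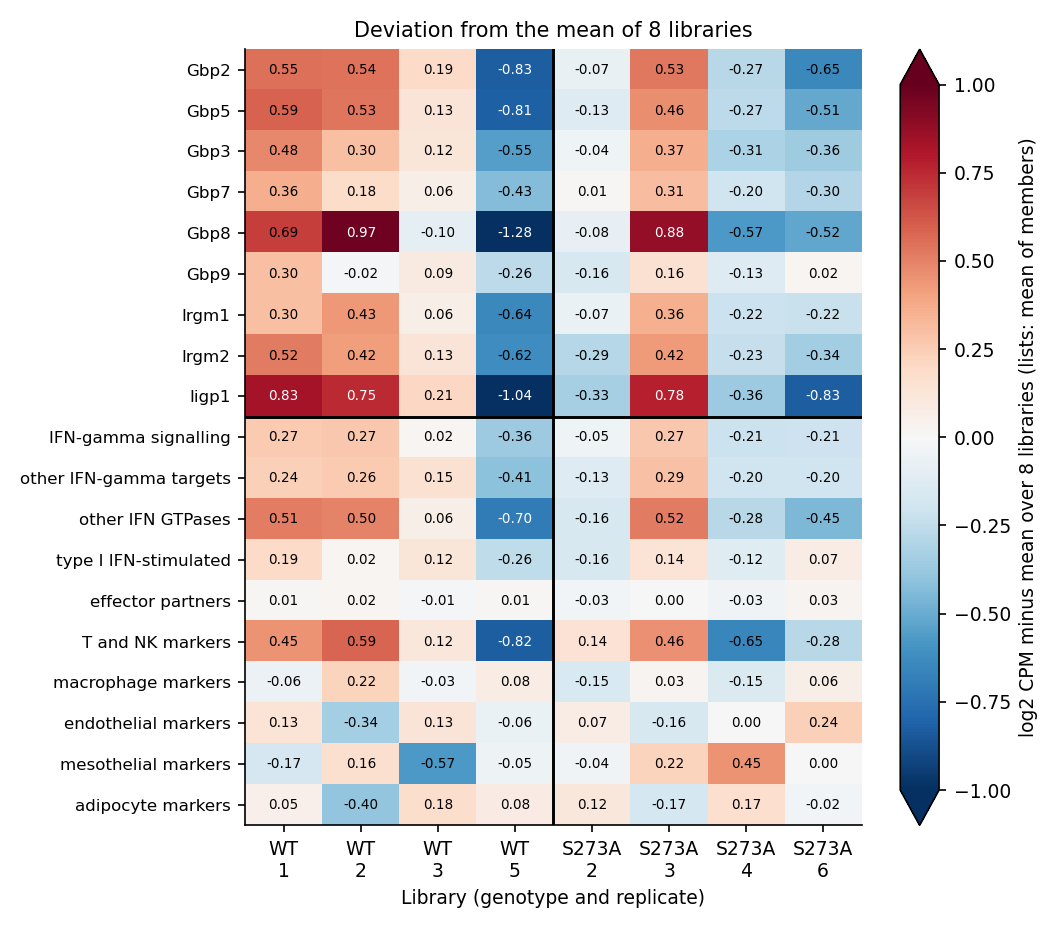
Log2 CPM minus the mean over 8 libraries for the 9 measured members (above the line) and, for each described list, the mean of its tested genes (below), by library; colour runs from -1 (blue) to 1 (red). WT replicate 5 is negative for every member shown and WT replicate 1 and S273A replicate 3 are positive. The same signs hold for the other GTPases and the T and NK markers. They also hold for the interferon-gamma signalling genes, the other interferon-gamma targets and the type I interferon-stimulated genes.

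Markers of T and NK cells, taken as a list, moved with the members. All 14 were tested and none was at 0 in any library. Estimates were below 0 for 12 and above 0 for 2, with a median log2 difference of -0.17 and 0 called. Their score was 0.45, 0.59, 0.12 and -0.82 for the WT libraries and 0.14, 0.46, -0.65 and -0.28 for the S273A libraries, and their summed level ran from 51.4 to 129.8 CPM over WT libraries and from 55.5 to 126 CPM over S273A libraries. WT replicate 5 had the lowest score of both sets, but S273A replicate 2 was below average for the members and above it for these markers. Pearson's r of a marker with the members' score ran from 0.51 (Ncr1, an NK cell receptor) to 0.97 (Nkg7, a cytotoxic granule gene). Ncr1 measured 3.74, 5.97, 4.72 and 2.29 CPM in WT libraries and 7.53, 3.43, 2.53 and 2.65 CPM in S273A libraries, highest in S273A replicate 2, and Nkg7 measured 13.4, 14.6, 12.1 and 4.29 CPM in WT libraries and 8.97, 14.3, 5.51 and 6.03 CPM in S273A libraries. In whole tissue, fewer cells of a type and less RNA per cell cannot be told apart, and the part of lymphocyte content in the members' levels was not tested.

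Markers of other cell types had other orders of libraries. The macrophage score (8 genes, none at 0) was -0.06, 0.22, -0.03 and 0.08 for the WT libraries and -0.15, 0.03, -0.15 and 0.06 for the S273A libraries, with summed levels of 3779 to 4507 CPM and 3479 to 4016 CPM; 6 of 8 estimates were below 0 (median log2 difference -0.14). The endothelial score (7 genes) was lowest in WT replicate 2 (-0.34) and highest in S273A replicate 6 (0.24), with 6 of 7 estimates above 0 (median 0.09). The mesothelial score (6 genes) was lowest in WT replicate 3 (-0.57) and highest in S273A replicate 4 (0.45), with 6 of 6 estimates above 0 and a median log2 difference of 0.30, farther from 0 than that of the members. Adipocyte markers (8 genes, 5303 to 8229.6 CPM summed over WT libraries) had counts in every library, with a score of -0.40 in WT replicate 2 and 7 of 8 estimates above 0 (median 0.05). With the members' score, r of single markers ran from -0.61 to -0.32 for adipocytes and from -0.60 to 0.04 for the endothelium. It ran from -0.38 to 0.46 for macrophages and from -0.14 to 0.05 for the mesothelium. No marker of these lists was called by edgeR, nor had one an unadjusted p under 0.05, and their part in the members' levels was not tested. Pparg averaged 129 ± 15.0 CPM (WT) against 139.7 ± 18.1 CPM (S273A; log2 difference 0.12, SE 0.11; SD, n = 4 each), and its level does not check the genotype labels, since the allele changes a codon.

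The genes most like the members in pattern were ranked by Pearson's r between their log2 CPM and the members' score over the 8 libraries, among 12906 named rows whose mean log2 CPM was 1 or higher. They were chosen for this value, which is therefore a description. Tlr12, a toll-like receptor for a parasite protein, came first (r and rho of 0.99 and 0.98), followed by Nlrc5, the activator of MHC class I genes (0.99 and 0.95), the serine protease inhibitor gene Serpina3g (0.99 and 0.93) and Cxcr3, the receptor for interferon-induced chemokines on T and NK cells (0.98 and 1). F830016B08Rik (0.98 and 1) and a row of the giant GTPase gene Gvin1 other than its highest-count row (0.98 and 0.90) were next. Dnase1l3, an extracellular nuclease (0.98 and 1), the mismatch repair gene Pms1 (0.98 and 0.90), the lymphocyte receptor gene Slamf1 (0.98 and 0.90) and Ms4a4b, expressed in T cells (0.98 and 0.98), completed the 10. Without the 2 libraries farthest from the median of the score, r was 0.95 or more for each. Nlrc5 measured 165, 156, 134 and 87.7 CPM in WT libraries and 117, 167, 101 and 101 CPM in S273A libraries, high in the same 3 libraries as the members and lowest in WT replicate 5.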

How the data were processed

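Read counts per gene row, whole numbers and not normalised, were deposited by the authors for 8 libraries in 1 table; a length column in bases, per the file headers, entered only the RPKM. Per the labels' protocols, ribosomal RNA was removed from 400 ng of RNA, cDNA was made without strand marking and amplified over 12 cycles, and read pairs were 36 bases long. The submitters' processing notes name, without roles, edgeR 3.3.0, featureCounts 1.5.2, Picard 2.9.2, HISAT2 2.0.5, bcl2fastq 2.20.0 and mm10. The annotation version and the handling of duplicate and multi-mapping reads were not given in the sources used here.

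Genotype was tested with edgeR 4.0.16 in R 4.3.3 (filterByExpr, TMM, robust glmQLFit, glmQLFTest, no covariate), adjusting by Benjamini-Hochberg over 15667 rows and calling at an adjusted p under 0.05. The test was checked on simulated counts. Log2 CPM used a prior count of 2. Alternatives were DESeq2 1.42.0, limma-voom (limma 3.58.1), RLE and upper-quartile scaling, no filter, a replicate block, summed rows and leaving out each library. Positions and transcripts came from GENCODE M21 on GRCm38. The members and gene lists were chosen with earlier results of these data known. Named genes were the members, the 4 genes of each pathway list with the smallest p and the 10 genes most like the members' score. Ifng, Ifngr1, Ifngr2, Irf1 and Pparg were named in any case. Nkg7, Ncr1, Casp4, Aim2, Sqstm1, 9930111J21Rik1, Rsad2, Stat2, Il1b, Atg3 and Atg5 were added after their values were seen. An item that the rule takes is not reported here.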

Additional observations from a re-analysis of the deposited data

Results flagged for a closer look

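The genes checked were the measured members, those named from the pathway lists by smallest p, and Ifng, Ifngr1, Ifngr2, Irf1 and Pparg. Genes named only for their likeness to the members, or added after their values were seen, were not checked. For each gene checked and each genotype, a library was singled out where its gap to the nearest of the 4 exceeded Dixon's 95% critical share of the range. Of 64 such groups checked, 3 met this, and chance flags about 1 in 20. S273A replicate 3 was far above the other S273A libraries for Irgm2 (84.9 CPM) and F830016B08Rik (26.2 CPM). These genes vary together over the libraries, so they are not separate observations. WT replicate 2 was far below the other WT libraries for Pparg (106 CPM). The score of the adipocyte markers, a list that includes Pparg, was also lowest in that library (-0.40), so this flag is not particular to Pparg.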

How the results depend on the processing

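No member was called under any alternative run, though the run with a replicate block had few libraries to base calls on. Over the whole table DESeq2 called 1 row, the fits without 1 library called 0 to 1 rows (1 without S273A replicate 4), and limma-voom, the other scalings, no filter and summed rows called 0. The members' median log2 difference stayed below 0 throughout. It was -0.45 to -0.089 in the fits without 1 library, where 7 to 9 members were below 0. Without WT replicate 5, Gbp5 and Irgm2 had unadjusted edgeR p-values of 0.0449 and 0.0406. Estimates turned sign in 5 cases. With a replicate block, Gbp7 was 0.038. In the fits without 1 library the ranges were -0.24 to 0.014 for Gbp7 (highest without WT replicate 1), -0.16 to 0.032 for Gbp9 (WT replicate 1), -0.67 to 0.081 for Gbp8 (WT replicate 2) and -0.29 to 0.026 for Irgm1 (WT replicate 2). The cause was not tested.

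The genotypes share only the replicate numbers 2 and 3, and same-numbered libraries did not deviate together (r of -0.10 and -0.28). With 2 such values it cannot be told whether same-numbered libraries were paired, and the sources used here state no pairing. With the replicate block the members' median was -0.10, 8 of 9 were below 0, and 0 rows were called (94 at an unadjusted p under 0.05). A replicate number present in a single genotype has a term of its own in that fit. Its genotype estimates therefore rest on replicates 2 and 3 of each genotype alone, so its lack of calls carries little weight. Counting error limits Ifng, with 2 to 17 reads per library.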
